A study of Mus musculus with 4 samples.

Results

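Nodal is a secreted signal of the TGF-beta superfamily, and the genes described here are its pathway and the feedback genes that limit it: Nodal, Gdf3, Tdgf1, Acvr2b, Smad2, Lefty1, Lefty2, Smad7 and Skil. They were chosen by name, with earlier results of these data known. Each is the locus of a deposited expression table whose RefSeq identifiers belong to that gene. All 9 were found among 23697 loci, each with exactly 1 locus, and all 9 were high enough to enter the test, as were 11784 loci in all. RNA was measured in WW6 cells, mouse embryonic stem cells of mixed 129/Sv, C57/B6J and SJL background, after transient transfection with small interfering RNA (siRNA). Kdm5b knockdown cells received siRNA against Kdm5b, which encodes a demethylase of lysine 4 on histone H3, and control cells received siRNA against GFP, with 2 libraries in each group, replicates A and B. The protocol names siRNA, where the treatment labels speak of a construct. All cells were grown without feeder cells, on gelatin, in serum with leukemia inhibitory factor. The labels give no time of harvest and are silent on whether replicates A and B came from different cultures. The p-values therefore describe how much these 4 libraries scatter, and that scatter may be technical. A transient transfection also leaves a mixture of cells, and in bulk RNA fewer expressing cells and less RNA per cell cannot be told apart.

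In the pathway, Nodal binds a pair of activin receptors, one of them ACVR2B, with the help of the co-receptor Cripto, the product of Tdgf1. The receptors phosphorylate SMAD2 and SMAD3, which join SMAD4 and partners such as FOXH1 on DNA. Among the genes they switch on are Nodal itself and its own inhibitors Lefty1 and Lefty2, and SMAD7 and the SnoN protein encoded by Skil act inside the cell to dampen the signal. Mouse embryonic stem cells are known to produce Nodal and to respond to it, and the Lefty genes are common readouts of that response.

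Kdm5b itself stood at 22.7 and 31.1 FPKM, a level scaled to transcript length and library depth, in the knockdown libraries, against 99.7 and 145 FPKM in the controls. Its log2 fold change, on the log2(FPKM + 1) scale used for every fold change here, was -2.14 with a standard error (SE) of 0.30, and its limma adjusted p was 0.562. Depth estimated from the steps between low values was 76.0% and 98.6% of that of control B in knockdown A and B, and 102% in control A. Knockdown A listed 11953 loci at 0, where the other libraries listed 8131 to 8609, so the fold change of each of the 9 genes is also given without that library. Markers of embryonic stem cells were high: 10 of 10 were above 0 in every library, with a summed level of 2061 to 2533 FPKM in knockdown and 2031 to 2307 FPKM in control libraries. Pou5f1 was the most abundant of them, and 3 of the 10 lay below both controls in both knockdown libraries: Esrrb (107 and 121 FPKM in knockdown, 174 and 137 FPKM in control), Klf4 (29.3 and 26.8 FPKM in knockdown, 46.5 and 55.4 FPKM in control) and Tfcp2l1 (38.6 and 42.5 FPKM in knockdown, 57.3 and 44.0 FPKM in control). The other markers of this list overlapped between the groups. Among all tested loci, 16.9% lay below both controls in both knockdown libraries. The part of Esrrb, Klf4 and Tfcp2l1 in the pathway values was not tested. The 6 fibroblast markers summed to 0.26 and 0.46 FPKM in knockdown and to 2.76 and 1.75 FPKM in control libraries, and Lum was at 0 in all 4. Thy1 alone held the largest share of each sum, at 0.20 and 0.31 FPKM in knockdown and 2.06 and 1.66 FPKM in control libraries. The 6 epiblast and neural markers summed to 59.2 and 57.4 FPKM in knockdown, inside the 45.6 and 69.6 FPKM of the controls.

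Across the 9 genes, 7 had a fold change above 0, as did 47.1% of all tested loci, and 4 (Nodal, Gdf3, Lefty2 and Smad7) stood above both controls in both knockdown libraries. None passed the test across all loci: 0 of 9 had a limma adjusted p under 0.05, and 0.0339% of the 11784 tested loci did. At an unadjusted limma p under 0.05 there was 1 gene, Lefty2, which was higher in knockdown. Of all loci, 0.967% passed that threshold on the higher side and 1.49% on the lower side. When limma's eBayes step was run without trend, 0 of the 9 genes passed it. Both knockdown libraries lay above both controls at 15.0% of all tested loci and below both at 16.9%. In the pathway the counts were 4 of 9 and 0 of 9. The genes were chosen with earlier results of these data known, so such counts describe the values and test nothing. With knockdown A set aside, 5 of 9 genes lay above both controls in knockdown B, as did 29.1% of loci. In knockdown A alone the count was also 5 of 9, against 36.8% of loci. The median log2 fold change of the 9 genes was 0.19, beside -0.03 for all tested loci. Without knockdown A, 7 of 9 fold changes were above 0, as were 50.9% of all loci. The median of the 9 genes was then 0.27, beside 0.0063 for all loci. Without control A, 5 of 9 fold changes were above 0, as were 46.4% of all loci.

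**Figure D1:**
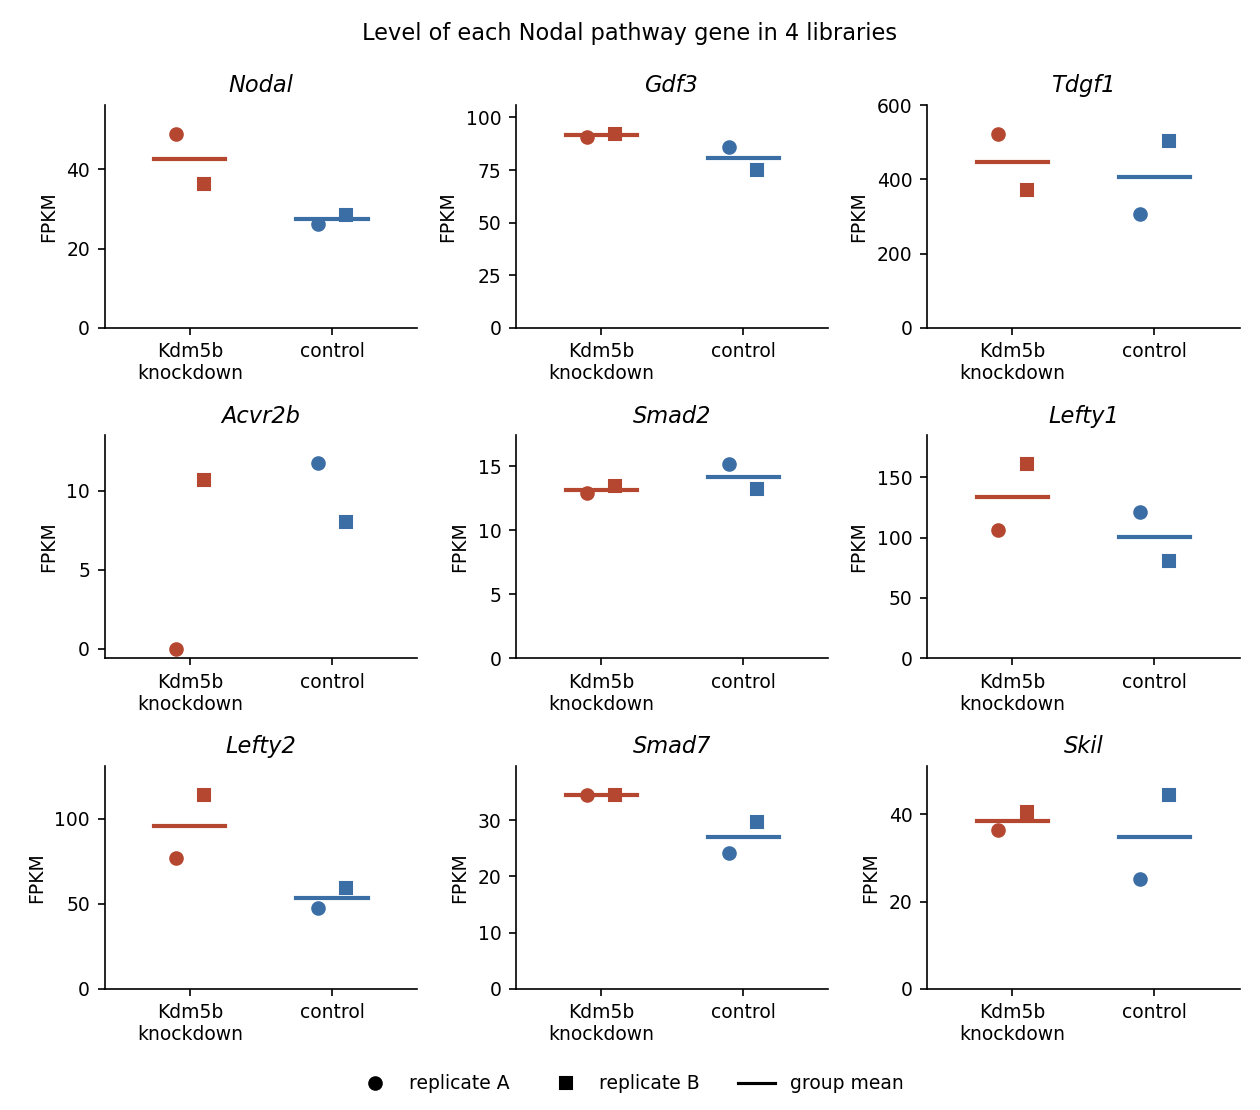
Level in FPKM (vertical axis, from 0, a separate scale for each gene) of the 9 genes in the 2 Kdm5b knockdown libraries (red, left) and the 2 control libraries (blue, right); circles are replicate A, squares replicate B, and bars the group means, not drawn for Acvr2b. The red points lie above the blue ones for Nodal, Gdf3, Lefty2 and Smad7, and Acvr2b stands at 0 in knockdown A.

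Promoters were looked up because the pathway feeds back on its own genes. RefSeq promoters on GRCm38.p6 are described for Nodal, Tdgf1 and Acvr2b. Those of the feedback genes Lefty1, Lefty2, Smad7 and Skil are not described, so the matches below do not cover them. In the 250 bases before each start site the SMAD box CAGAC and the FOXH1 site AATNCACA were searched on both strands (reverse complements GTCTG and TGTGNATT, N for any base). Of 32851 promoters, 42.2% held the SMAD box and 3.18% the FOXH1 site. Nodal held neither, Tdgf1 held 1 SMAD box beginning at base -113, and Acvr2b held 1 beginning at base -233. The CG dinucleotides numbered 3 in Nodal, 7 in Tdgf1 and 24 in Acvr2b, and the median over all promoters was 6. The Nodal and Tdgf1 windows are shown, as those of the ligand and its co-receptor, 5′ to 3′ on the gene's strand with the SMAD box in capitals. They lie at chr10:61417722-61417971 on the plus strand and at chr9:110946159-110946408 on the minus strand.
Nodal: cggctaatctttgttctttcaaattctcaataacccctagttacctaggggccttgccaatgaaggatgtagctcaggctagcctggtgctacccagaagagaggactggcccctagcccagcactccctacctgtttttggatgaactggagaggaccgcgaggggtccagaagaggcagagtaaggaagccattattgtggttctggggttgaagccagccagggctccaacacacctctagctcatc
Tdgf1: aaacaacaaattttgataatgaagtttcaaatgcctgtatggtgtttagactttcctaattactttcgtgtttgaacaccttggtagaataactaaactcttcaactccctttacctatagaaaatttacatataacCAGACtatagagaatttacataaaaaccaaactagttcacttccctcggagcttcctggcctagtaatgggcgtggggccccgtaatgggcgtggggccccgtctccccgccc
A match or its absence describes these letters only, and sequence outside the 250 bases was not searched.

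Among the ligands, Nodal (NM_013611; mm9 chromosome 10, 60880720 to 60888085) measured 49.0 FPKM in knockdown A and 36.4 FPKM in knockdown B, against 26.3 and 28.5 FPKM in control A and B. Both knockdown libraries were higher than both controls, and the spread was wider in knockdown, where A exceeded B by 1.35-fold, than in control cells, where the fold was 1.08. The means were 42.7 ± 8.93 FPKM in knockdown and 27.4 ± 1.56 FPKM in control cells (SD, n = 2 each). The log2 fold change was 0.61 (SE 0.27, 95% interval -0.04 to 1.26, limma adjusted p = 0.918), and Nodal ranked 403 of 11784 loci by limma p. It was 0.40 without knockdown A and 0.82 without knockdown B. In these libraries the Nodal values stand for an estimated 304 and 292 fragments in knockdown and 219 and 232 in control cells.

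Gdf3 (NM_008108; mm9 chromosome 6, 122555421 to 122560089) encodes a related ligand that also works through Cripto and can block bone morphogenetic proteins. Its level was 90.7 and 92.3 FPKM in knockdown and 85.9 and 75.2 FPKM in control libraries. The knockdown libraries sat close together and just above control A. Its log2 fold change of 0.18 (SE 0.22, 95% interval -0.34 to 0.71, limma adjusted p = 0.918) was smaller than its standard error, and it was 0.20 without knockdown A.

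Of the proteins that receive the signal, the co-receptor gene Tdgf1 (NM_011562; mm9 chromosome 9, 110842112 to 110848662) was the most abundant of the 9 genes, at 523 and 371 FPKM in knockdown and 308 and 504 FPKM in control libraries. The groups interleaved, and the controls differed from each other by 1.64-fold, more than the group means did (1.10-fold). The log2 fold change was 0.16 (SE 0.32, 95% interval -0.61 to 0.93, limma adjusted p = 0.945). Its sign turned without control A (-0.19) and without knockdown A (-0.09). Tdgf1 has processed copies in the genome: its transcript matched Tdgf1-ps1 at 98.8% identity over 512 bases and Tdgf1-ps2 at 90.4% over 509 bases, so some of its fragments could have been assigned elsewhere.

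Acvr2b (NM_007397; mm9 chromosome 9, 119311619 to 119342624), the type II receptor gene, was listed at 0 in knockdown A and at 10.7 FPKM in knockdown B, against 11.8 and 8.02 FPKM in control A and B. Knockdown B thus lay between the controls. At the mean level of the other 3 libraries, knockdown A would hold an estimated 62.8 fragments of the transcript. A listed 0 of this kind was seen at 50 of 6576 loci in knockdown A (0.760%), counting loci with at least 8.02 FPKM in each of the other 3 libraries. The same count was 0 in knockdown B, 0 in control A and 1 in control B. Of the 50 loci, 30 carry a coding RefSeq identifier. One is Ndufb4, the gene of a subunit of respiratory complex I, which was named after its values were seen: it was listed at 0 in knockdown A, at 15.8 FPKM in knockdown B, and at 17.0 and 27.4 FPKM in control A and B. An exact 0 can be a failed estimate, and whether it is one here was not tested. The log2 fold change of Acvr2b was -1.65 (SE 1.09, 95% interval -4.31 to 1.01, limma adjusted p = 0.918). It was -3.24 with a pseudocount of 0.1, 0.12 without knockdown A, and -3.42 without knockdown B, the setting in which it passed the threshold (limma adjusted p = 0.0401, and 0.868 to 1.00 under the other alternatives).

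The signal transducer gene Smad2 (NM_010754), on chromosome 18, had the narrowest range of the 9 genes over the 4 libraries. It stood at 12.9 and 13.4 FPKM in knockdown and at 15.2 and 13.2 FPKM in control libraries. Its groups overlapped, with a log2 fold change of -0.10 (SE 0.28, 95% interval -0.79 to 0.60, limma adjusted p = 0.963), and -0.07 without knockdown A.

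The secreted feedback inhibitors Lefty1 and Lefty2 bind Nodal or its co-receptor and are encoded near each other on chromosome 1. Lefty2 (NM_177099; mm9 chromosome 1, 182823250 to 182829233) measured 76.7 FPKM in knockdown A and 114 FPKM in knockdown B, against 47.3 and 59.5 FPKM in control A and B. Both knockdown libraries were above both controls. The means were 95.4 ± 26.4 FPKM in knockdown and 53.4 ± 8.62 FPKM in control cells (SD, n = 2 each), a ratio of 1.79. The log2 fold change of 0.81 was the highest of the 9 genes (SE 0.28, 95% interval 0.11 to 1.50, unadjusted p = 0.0290 and adjusted p = 0.918 by limma). Lefty2 ranked 130 of 11784 loci by limma p. It was 1.09 without knockdown A and 0.52 without knockdown B.

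Lefty1 (NM_010094; mm9 chromosome 1, 182865170 to 182868532) measured 106 FPKM in knockdown A and 161 FPKM in knockdown B, beside 121 and 80.7 FPKM in control A and B. Knockdown A lay between the controls, so the groups overlapped. Each group spread by about as much as the other, 1.52-fold between knockdown and 1.50-fold between control libraries, and both exceeded the 1.32-fold difference of the means. The log2 fold change was 0.40 (SE 0.31, 95% interval -0.37 to 1.17, limma adjusted p = 0.918). It was 0.10 without knockdown B and 0.11 without control B, against 0.70 without knockdown A.

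The Lefty transcripts are alike enough that fragments may be shared between them. Their coding sequences, read from GENCODE transcripts as the longest open frame of 1107 bases each, were identical at 91.9% of positions, and 26.6% of the 50-base stretches of Lefty2 occur unchanged in Lefty1. The longest identical run was 140 bases. How the fragments of such stretches were assigned is not given in the sources used here. The FPKM sum of both genes, which still depends in part on that assignment because their transcripts differ in length (1620 bases for Lefty1 and 2473 for Lefty2), was 183 and 275 FPKM in knockdown and 168 and 140 FPKM in control libraries. Both knockdown libraries were above both controls in this sum. The log2 fold change of the sum was 0.54 (SE 0.27, 95% interval -0.12 to 1.20, limma adjusted p = 0.918).

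Inside the cell, Smad7 (NM_001042660), on chromosome 18, encodes an inhibitory SMAD that blocks the receptors. It stood at 34.4 and 34.5 FPKM in knockdown and at 24.2 and 29.7 FPKM in control libraries. The knockdown libraries were nearly equal (1.00-fold apart) and lay above both controls, and the log2 fold change was 0.35 (SE 0.25, 95% interval -0.27 to 0.97, limma adjusted p = 0.918), and 0.35 without knockdown A as well. Skil (NM_011386; mm9 chromosome 3, 30993980 to 31021845) encodes SnoN, a corepressor that binds SMAD complexes and is degraded when the pathway is active. It stood at 36.5 and 40.6 FPKM in knockdown and at 25.1 and 44.5 FPKM in control libraries. The controls enclosed the knockdown values, and the log2 fold change of 0.19 (SE 0.33, limma adjusted p = 0.937) was 0.27 without knockdown A and turned to -0.21 without control A.

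**Figure D2:**
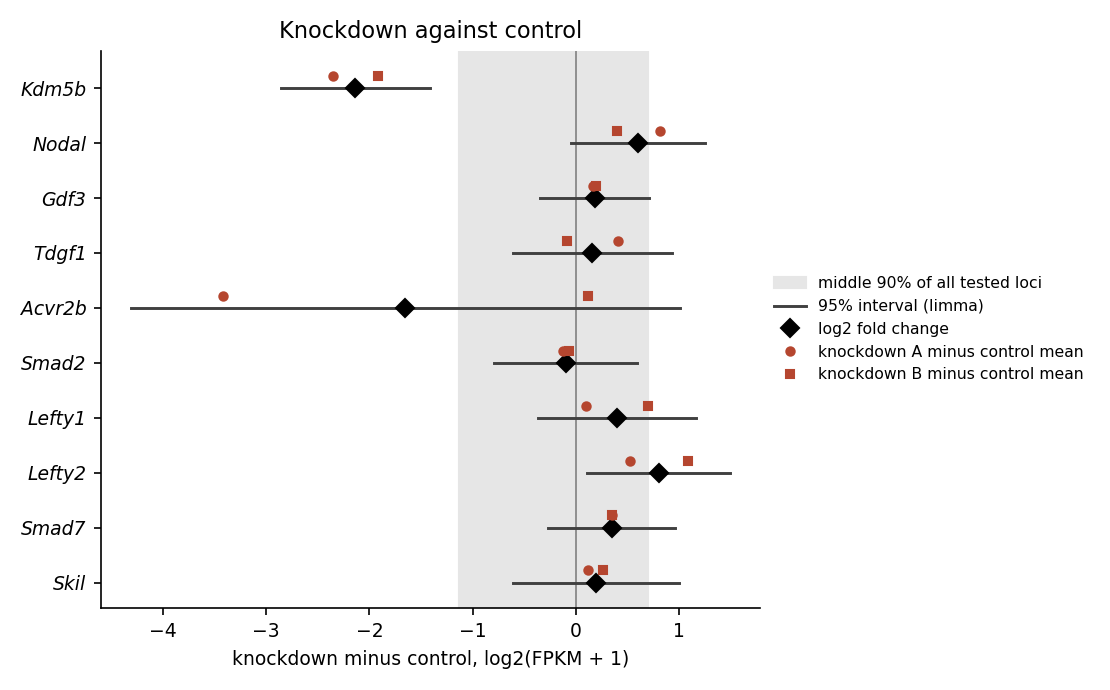
Log2 fold change of the targeted gene and the 9 pathway genes, knockdown minus control on log2(FPKM + 1), with diamonds for the estimate, lines for the 95% interval from limma, and small red marks for each knockdown library against the control mean; the grey band spans the 5th to the 95th percentile of all 11784 tested loci (-1.13 to 0.70). The interval of Lefty2 lies above 0 and those of the other 8 pathway genes include 0.

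By mean level over the 4 libraries, which FPKM allows between genes because it is per length, the order was Tdgf1 (426 FPKM), Lefty1 (117), Gdf3 (86.0), Lefty2 (74.4), Skil (36.7), Nodal (35.0), Smad7 (30.7), Smad2 (13.7) and Acvr2b (7.61). The mean of Acvr2b includes its listed 0. Both Lefty means stood above that of Nodal, although the lowest Lefty2 value (47.3 FPKM, control A) lay below the highest Nodal value (49.0 FPKM, knockdown A). Tdgf1 lay above 98.1% of all tested loci. The ranges over the 4 libraries overlapped between Lefty1 and Gdf3, Gdf3 and Lefty2, Skil and Nodal, and Nodal and Smad7. They were apart between Tdgf1 and Lefty1, Lefty2 and Skil, Smad7 and Smad2, and Smad2 and Acvr2b.

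Ratios of 2 genes within a library need no scaling between libraries. Summed Lefty1 and Lefty2 stood at 3.73 and 7.56 times Nodal in knockdown A and B and at 6.41 and 4.92 times Nodal in control A and B, so the balance of inhibitors to ligand overlapped between the groups. Nodal relative to Gdf3 was 0.540 and 0.394 in knockdown and 0.306 and 0.379 in control libraries, and Smad7 relative to Smad2 was 2.67 and 2.57 in knockdown and 1.60 and 2.25 in control libraries. In both of these ratios each knockdown library exceeded each control, and the share of other gene pairs that do so was not counted. Tdgf1 relative to Nodal was 10.7 and 10.2 in knockdown and 11.7 and 17.7 in control libraries, lower in both knockdown libraries. These ratios reuse the Nodal and Smad7 values given above and are not separate results. Lefty1 relative to Lefty2 was 1.38 and 1.41 in knockdown libraries, 2.56 in control A and 1.36 in control B. Control A thus stood apart from the other 3 libraries in how the Lefty values divide.

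**Figure D3:**
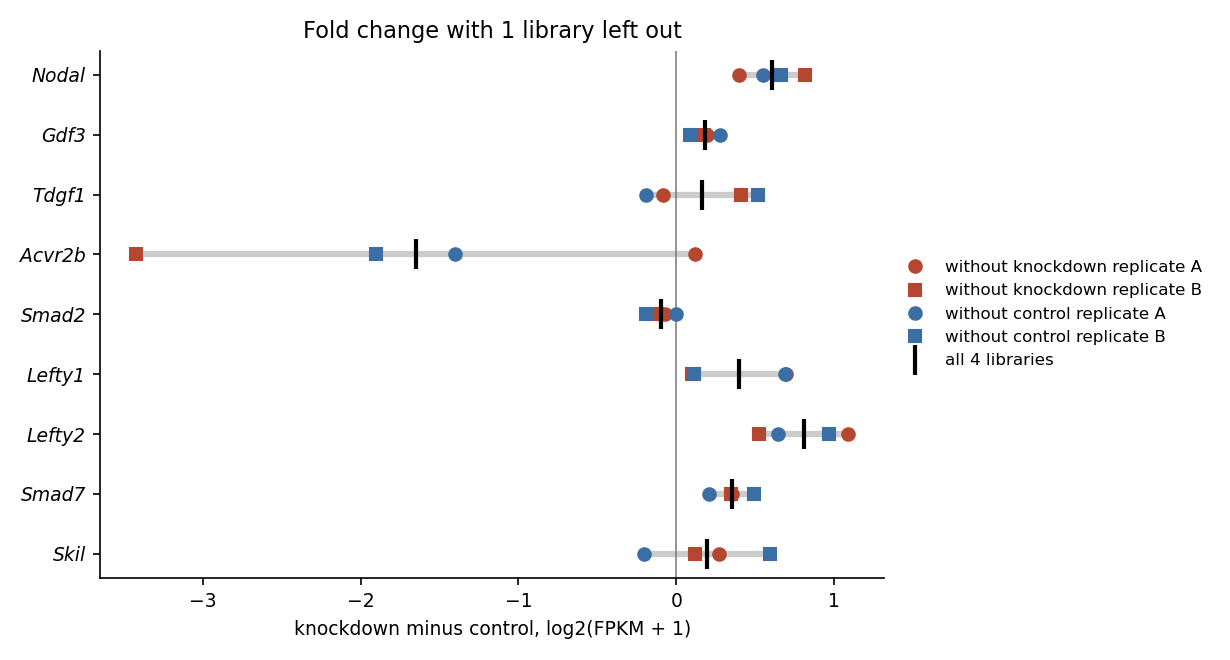
Log2 fold change of each gene (knockdown minus control, log2(FPKM + 1), horizontal axis) with all 4 libraries (black bar) and with 1 library left out (red for a knockdown, blue for a control library; circles A, squares B); grey lines span the lowest to the highest. Nodal stays between 0.40 and 0.82 and Lefty2 between 0.52 and 1.09, while Tdgf1, Skil and Acvr2b cross 0.

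The rest of the pathway was described from lists of 61 other genes found, of which 41 were tested. On balance these genes did not lean to one side: 20 had a fold change above 0 and 21 below, with a median of -0.01 beside -0.03 for all loci. None passed the test (0 of 41 by limma adjusted p, 2 at an unadjusted p under 0.05), and 0.0339% of all loci did. Both knockdown libraries were above both controls for 8 of the 41, where 15.0% of all loci were, and below both for 6, where 16.9% were.

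Of 5 tested genes for ligands and the enzymes that cut them, 3 had a fold change above 0. Furin, a protease that matures Nodal, stood at 0.67 and 2.65 FPKM in knockdown and 6.39 and 4.99 FPKM in control libraries, with a log2 fold change of -1.43 (SE 0.55, unadjusted p = 0.0403 and adjusted p = 0.918 by limma). Pcsk6, which encodes another such protease, stood at 17.7 and 13.1 FPKM in knockdown and at 8.55 and 15.6 FPKM in control libraries, with overlap. Inha, the inhibin alpha subunit, was at 6.70 and 0.19 FPKM in knockdown and at 1.07 and 1.10 FPKM in control libraries, so the knockdown libraries lay on either side of the controls. The fold changes were 0.37 for Pcsk6 and 0.53 for Inha, and they turned to -0.03 without control A for Pcsk6 and to -0.82 without knockdown A for Inha.

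The 4 tested receptors divided 2 to 2 around 0. Acvr1b, the type I receptor ALK4 that pairs with ACVR2B, stood at 13.0 and 9.17 FPKM in knockdown and 16.8 and 13.5 FPKM in control libraries, both knockdown values below both controls (log2 fold change -0.43, SE 0.32, limma adjusted p = 0.918). Acvr1b shares its interval with a microRNA locus. Tgfbr1 was at 7.69 and 9.42 FPKM in knockdown and 10.5 and 10.1 FPKM in control libraries (log2 fold change -0.25), and Tgfbr2 had a log2 fold change of 0.27 that turned to -0.32 without knockdown A. The second EGF-CFC co-receptor, Cfc1, was listed at 0 and 0.28 FPKM in knockdown and at 1.35 and 0.28 FPKM in control libraries, below the level tested.

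Of the extracellular inhibitors other than the Lefty genes, 4 of 7 were tested and Cer1 was at 0 in all libraries. Fstl1, a follistatin-like secreted protein, stood at 32.4 and 23.4 FPKM in knockdown and 18.1 and 19.6 FPKM in control libraries (log2 fold change 0.53, SE 0.28, limma adjusted p = 0.918), both knockdown libraries above both controls. Dand5, which encodes a Nodal antagonist, had a log2 fold change of -0.58 that turned to 0.40 without knockdown B, and Tmeff1, whose product binds Cripto in frog embryos, one of 0.08 that turned to -0.04 without knockdown A.

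Among SMADs and their partners, 2 of 8 tested genes had a fold change above 0. Zfyve9, which encodes the SMAD anchor SARA, stood at 10.9 and 6.33 FPKM in knockdown and 4.94 and 4.00 FPKM in control libraries (log2 fold change 0.78, SE 0.41, limma adjusted p = 0.918), both knockdown libraries above both controls. It shares its interval with another locus. Smad3 was low in 1 library: 0.80 and 5.58 FPKM in knockdown and 4.39 and 5.11 FPKM in control libraries, with a log2 fold change of -0.74 that turned to 0.20 without knockdown A. Gtf2i likewise went to 0.05 without knockdown A, against -0.53 with all libraries. Foxh1, the DNA-binding partner named in the background, stood at 38.4 and 51.2 FPKM in knockdown, inside the 79.6 and 28.4 FPKM of the controls.

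The 15 genes for inhibitors inside the cell, all tested, had 7 fold changes above 0 and 8 below. Tgif1, a corepressor of SMAD2, stood at 77.5 and 65.8 FPKM in knockdown and 89.0 and 122 FPKM in control libraries, with both knockdown values below both controls (log2 fold change -0.54, SE 0.25, limma adjusted p = 0.918). Pmepa1, a SMAD target that limits signalling, was at 0.07 FPKM in knockdown A and between 1.71 and 2.45 FPKM in the other libraries. Its log2 fold change of -0.73 turned to 0.05 without knockdown A. Nedd4l, a ubiquitin ligase for SMADs, stood at 5.28 and 2.86 FPKM in knockdown and 2.50 and 2.85 FPKM in control libraries (log2 fold change 0.42).

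Of 14 target genes listed, 6 were tested. Id1, better known as a target of bone morphogenetic proteins, stood at 47.0 and 32.4 FPKM in knockdown and 10.8 and 26.2 FPKM in control libraries, above both controls (log2 fold change 1.16, SE 0.45, unadjusted p = 0.0416 and adjusted p = 0.918 by limma). It was 0.56 without control A and 1.76 without control B. The 6 tested targets lay on both sides of 0, with 3 above and 3 below. Mesendoderm targets were low. T, Gsc, Mixl1 and Cer1 were each under 1 FPKM in every library, and Eomes, a transcription factor of early mesendoderm, stood at 0.61 and 1.67 FPKM in knockdown and 0.58 and 2.11 FPKM in control libraries. The 6 mesendoderm markers, of which Eomes made up the larger part, summed to 0.61 and 2.04 FPKM in knockdown and to 0.92 and 3.67 FPKM in control libraries. Primitive endoderm markers, which share Foxa2 with the target list, summed to 3.64 and 3.24 FPKM over 8 genes in knockdown and to 11.9 and 17.0 FPKM in control libraries. Cubn, an endocytic receptor gene, held the largest share of the control sums, at 0.27 and 0.34 FPKM in knockdown and 4.23 and 7.39 FPKM in control libraries. Gata4, Sox17, Sox7 and Dab2 were at 0 in knockdown A, the library with the most loci at 0, and above 0 in the other libraries. Foxa2 was at 0 in all but control B (0.24 FPKM). The remaining markers of this list, Gata6 and Pdgfra, overlapped between the groups. Gata6 was highest in knockdown A (2.32 FPKM) and lowest in knockdown B (0.08 FPKM), with the controls between (1.81 and 2.09 FPKM). Pdgfra reached 1.05 FPKM in knockdown A, between the controls (0.82 and 1.38 FPKM), and 0.26 FPKM in knockdown B. The part of such cells in the pathway values was not tested.

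**Figure D4:**
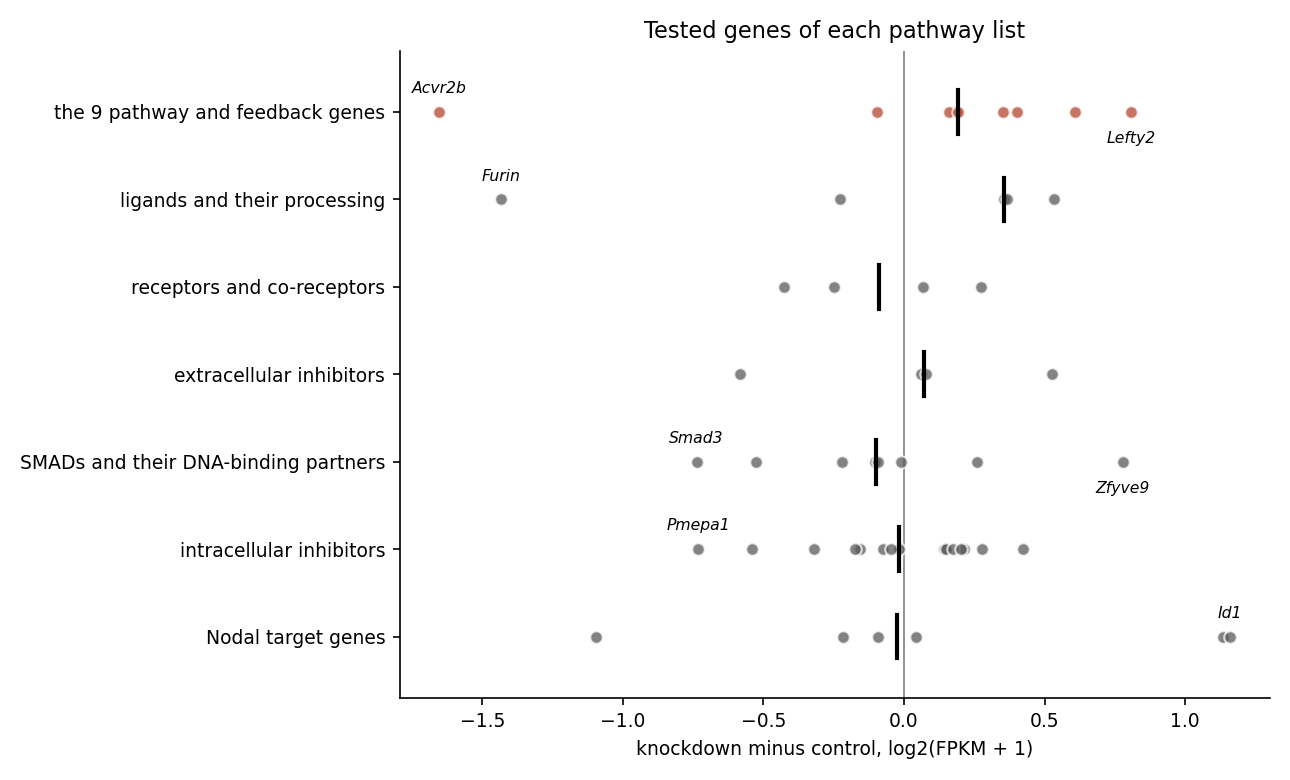
Log2 fold change (knockdown minus control, log2(FPKM + 1)) of the 9 genes (red, top) and of the tested genes of each other pathway list (grey), with 1 point per gene and a black bar at each median; some genes beyond 0.7 in size are named. The medians run from -0.10 for SMADs and partners to 0.36 for ligands, and the points of each list lie on both sides of 0.

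The loci whose 4 values moved most like those of a gene were found by the root mean square difference of profiles centred on their own mean, in log2(FPKM + 1), over 4 libraries and 11129 named loci. For Nodal they were Ndufc2 (0.01), Nexmif (0.01) and Cetn3 (0.02), and 103 loci lay within 0.1 of it. For Lefty2 they were Ackr3 (0.04), Ccdc9 (0.07) and Mmrn2 (0.09), of 4 loci within 0.1. For Lefty1 they were Insyn2a (0.06), Herpud2 (0.07) and Kcnk1 (0.07), of 10 within 0.1. Ackr3, a scavenger receptor for chemokines, stood at 4.12 and 6.02 FPKM in knockdown and 1.97 and 2.77 FPKM in control libraries. With 4 libraries such likeness is a description of these values.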

How the data were processed

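RNA was measured in 4 libraries, 2 per group. Per the labels' protocols, ribosomal RNA was removed from total RNA and stranded libraries were made. The authors deposited FPKM per locus and library, made with Cufflinks and Cuffdiff on mm9 per the submitters' processing notes. Versions, the aligner and the strand counted were not given in the sources used here. Depth is not stated with FPKM, so it was estimated from steps of low values in transcripts over 1000 bases, taking 200 bases off their length, with 79.8% to 81.9% of the values used falling no more than 0.15 from whole fragments. No counting interval was made from it.

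Loci were named from RefSeq identifiers with a GRCm38.p6 table, used for names (1 symbol for 23241 loci, several for 189, none for 267). Coordinates are the deposited mm9 ones, 1-based: deposited starts count from 0. Loci averaging 1 FPKM or more entered the test, on log2(FPKM + 1), which understates changes of low genes, with limma 3.58.1 in R 4.3.3 (group alone, eBayes with trend), two-sided, with Benjamini-Hochberg adjustment over all loci and a threshold of 0.05. The fit was also run on simulated data, and no detection rate from that run is given here. Transcripts were compared with BLAST 2.17.0 (at least 90% identity over 200 bases) and Biopython 1.88, using GENCODE M21. Tables were made with pandas 2.3.3 and numpy 2.4.6 in Python 3.11.15, figures with matplotlib 3.10.9.

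The genes and lists were chosen with earlier results of these data known. The text names the 9 genes, Kdm5b, the 3 tested genes of each list with the largest absolute log2 fold change, and the 3 loci nearest in profile to Nodal, Lefty1 and Lefty2 (no Mir, Snor, Gm or Rik names). Foxh1, Cfc1, Cer1, T, Gsc, Mixl1, Eomes and some cell type markers were named besides, having been chosen after their values were seen. Some genes and sequences are not reported here. The listed symbol Tdgf1-ps matched no locus, and the names Tdgf1-ps1 and Tdgf1-ps2 were not looked up among the loci.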

Additional observations from a re-analysis of the deposited data

How the results depend on the processing

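Alternatives were a pseudocount of 0.1, no filter, a filter at 5 FPKM, quantile normalization, upper-quartile scaling, eBayes without trend, the replicate letter as a block, and each library left out. Over 28 genes chosen by the rule for named genes, 12 of 302 results turned sign, each when 1 library was left out, and no scaling, filter or pseudocount turned one. Fold changes (log2) of Tdgf1 ranged from -0.19 to 0.52 over the left-out libraries, of Skil from -0.21 to 0.59, of Acvr2b from -3.42 to 0.12, of Inha from -0.82 to 1.88, of Pcsk6 from -0.0323 to 0.76, of Tgfbr2 from -0.32 to 0.86, of Dand5 from -1.57 to 0.40, of Tmeff1 from -0.0387 to 0.19, of Smad3 from -1.67 to 0.20, of Gtf2i from -1.11 to 0.0543 and of Pmepa1 from -1.52 to 0.0515. Acvr2b was also the 1 pathway gene called in any alternative (without knockdown B), so the count of the 9 genes called ranged from 0 to 1, and 0 of the other pathway genes were called in every setting. A lone library left in a group is assumed to vary like the other group. With a pseudocount of 0.1 Acvr2b stood at -3.24. The count of loci called was 4 with all libraries, 1 with no filter, 2 with eBayes without trend, and ranged from 0 to 134 over the left-out libraries (0 without control A, 0 without control B, 13 without knockdown A, 134 without knockdown B). Same-lettered libraries did not deviate together (r = -0.07 across loci), so the letters were not taken as pairs. With the replicate block 7 loci were called and 0 of the 9 genes. At an unadjusted limma p under 0.05, 0 of the 9 genes passed with eBayes without trend, against 1 (Lefty2) in the main fit. Quantile normalization and upper-quartile scaling moved the median log2 fold change of all loci to 0.03 and -0.04, against -0.03 as deposited.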
